A study of Homo sapiens with 18 samples.

Results

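The 8 genes described here encode S100 proteins: S100A2, S100A3, S100A4, S100A6, S100A10, S100A11, S100A13 and S100A16. They are 8 of the 27064 genes to which RefSeq transcripts were summed, and they were chosen by earlier results of these data, namely levels of the family that differed between hairpin and control libraries. Their differences between hairpin and control are therefore given as a description, with a standard error and without a p-value. RNA was sequenced from 786-O cells, an established line of clear-cell renal carcinoma without functional VHL, in 18 libraries, 3 for each of 6 groups. For the knockdown of USP13, cells carried hairpin sh50 or hairpin sh52 against USP13, a deubiquitinating enzyme, or a control hairpin called shCtrl. For the knockdown of ZHX2, cells carried hairpin sh43 or hairpin sh45 against ZHX2, a zinc-finger and homeobox transcription factor, or that experiment's own shCtrl. A difference in a bulk library cannot tell fewer cells that express a gene from less RNA per cell. All groups are the same tumour line with a hairpin, both hairpins of an experiment share 1 set of shCtrl libraries, and the labels do not say whether replicates were separate cultures. The treatment notes count hairpins 43 and 45 among those against USP13, whereas the sample titles assign them to ZHX2, and the notes mention an inducible vector without saying whether it was used for these libraries.

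S100 proteins are small proteins with a pair of EF-hands, the helix-loop-helix motif that binds calcium, and most act as dimers. Calcium opens a cleft in the dimer, and the cleft then holds a partner protein such as an annexin or a myosin heavy chain. S100A10 is the exception, since it no longer binds calcium and stays in the open form, bound to annexin A2 beneath the plasma membrane. Most of the human genes lie side by side on chromosome 1, and several of the proteins have been studied in carcinomas for their part in cell movement and calcium signalling.

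The 8 genes fall into 2 stretches of chromosome 1 in the RefSeq gene table. S100A10 and S100A11 come first, and S100A6, S100A4, S100A3, S100A2, S100A16 and S100A13 follow after the genes S100A9, S100A12, S100A8, S100A7A and S100A7, with S100A5 and S100A14 among them. Of these, S100A4, S100A3 and S100A2 are direct neighbours and had the lowest levels of the 8, and S100A16 comes next in that order. The 250 bases before the transcription start of these 4 neighbours are shown because their levels differed from the controls in unlike ways. They are written 5′ to 3′ along the gene's strand, which is the minus strand for all 4, from RefSeq's GRCh38.p14 build. The start used is the one nearest to that of a quantified transcript, 1 of 4 for S100A16 and 1 of 2 for S100A4. The S100A4 sequence is chr1:153545807-153546056, the S100A3 sequence chr1:153549259-153549508, the S100A2 sequence chr1:153565845-153566094 and the S100A16 sequence chr1:153613138-153613387.
S100A4: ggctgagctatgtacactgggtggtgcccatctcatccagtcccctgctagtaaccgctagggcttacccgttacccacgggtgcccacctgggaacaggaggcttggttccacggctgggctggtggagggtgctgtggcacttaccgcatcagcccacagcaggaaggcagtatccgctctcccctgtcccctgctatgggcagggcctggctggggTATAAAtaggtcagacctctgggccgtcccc
S100A3: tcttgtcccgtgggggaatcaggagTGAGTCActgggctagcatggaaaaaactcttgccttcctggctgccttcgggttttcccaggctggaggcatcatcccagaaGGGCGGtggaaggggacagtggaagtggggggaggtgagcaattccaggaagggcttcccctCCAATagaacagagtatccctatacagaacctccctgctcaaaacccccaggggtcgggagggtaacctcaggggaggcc
S100A2: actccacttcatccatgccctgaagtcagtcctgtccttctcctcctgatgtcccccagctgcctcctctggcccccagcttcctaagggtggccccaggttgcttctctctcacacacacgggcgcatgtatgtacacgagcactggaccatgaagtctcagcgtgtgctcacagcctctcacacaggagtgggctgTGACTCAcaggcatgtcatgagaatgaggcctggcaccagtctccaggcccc
S100A16: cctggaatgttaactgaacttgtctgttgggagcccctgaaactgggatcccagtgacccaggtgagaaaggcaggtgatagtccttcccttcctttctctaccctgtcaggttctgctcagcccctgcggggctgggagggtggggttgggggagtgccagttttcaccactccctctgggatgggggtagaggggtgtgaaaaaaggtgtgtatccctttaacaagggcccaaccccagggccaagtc
Capitals mark matches to 5 short motifs, searched on either strand. The TATA box was searched as TATAAA, a site near the start where the polymerase assembles. The CCAAT box was searched by the letters of its name. The GC box, bound by Sp1, was searched as GGGCGG. The AP-1 motif, bound by dimers of Fos and Jun, was searched as TGANTCA. The core of the hypoxia response element, bound by the HIF factors that are active in cells without VHL, was searched as ACGTG. No 2 matches overlap in these 4 sequences. S100A4 held 1 TATA box, which 10.7% of the 35116 human sequences of the same length and place hold. S100A3 and S100A2 each held 1 AP-1 motif, which 6.57% of all such sequences hold, and S100A3 also held 1 CCAAT box and 1 GC box, found in 32% and 42.6% of them. None of the 5 motifs was in the S100A16 sequence, and ACGTG, present in 18.5% of all sequences, was in none of the 4. The RefSeq table lists another start for S100A16, and the 250 bases before it (chr1:153609356-153609605) held 2 CCAAT boxes, 1 GC box and 1 ACGTG. Another start is listed for S100A2 as well, and the 250 bases before that one (chr1:153563888-153564137) held none of the 5 motifs. A match is a run of letters and was not tested as a binding site.

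All 8 genes passed the filter on low counts in both experiments, and their levels spanned a wide range. On the TPM scale, transcript abundance corrected for length and scaled to 1 fixed total per library, which allows genes to be compared, S100A11 had a median of 3452 over the 18 libraries (1853 to 4733) and ranked 35th of the 27064 genes by mean. S100A6 followed with a median of 2336 TPM (1606 to 2841), then S100A10 with 850.4 TPM (770.4 to 1145), S100A13 with 393 TPM (313 to 491) and S100A16 with 313 TPM (272 to 599). These 5 are abundant messages. The other 3 were low: S100A2 had a median of 48.3 TPM (18.5 to 89.3), S100A4 24.6 TPM (1.40 to 77.2) and S100A3 10.7 TPM (1.42 to 21.3). Together the 8 genes took 0.618% to 0.906% of each library's TPM. The ranges of S100A11 and S100A6 overlapped, as did those of S100A13 and S100A16 and those of S100A2, S100A4 and S100A3, whereas S100A10 lay apart from both of its neighbours in the order.

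**Figure D1:**
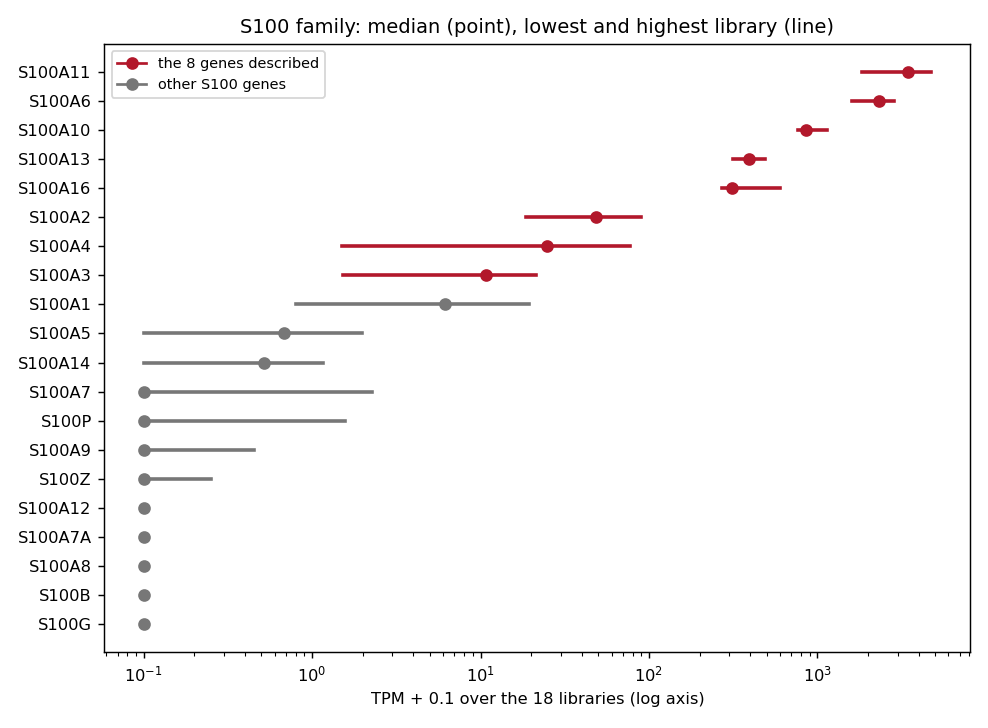
Level of 20 S100 genes as TPM + 0.1 on a log axis, over all 18 libraries; points are medians and lines run from the lowest to the highest library. The 8 genes described (red) hold the upper places, from S100A11 with a median of 3452 TPM to S100A3 with 10.7 TPM, and 5 of the other genes (grey) lie at 0 in every library.

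The order of the genes was not the same in every group. S100A11 stood first under sh50, under sh52 and under sh43, whereas under sh45 S100A6 stood first with 2784 ± 59 TPM, against 1955 ± 104 TPM for S100A11 (SD, n = 3 libraries). In the ZHX2 shCtrl libraries both genes were level, with 2377 ± 19.4 TPM for S100A11 and 2366 ± 113 TPM for S100A6. S100A16 exceeded S100A13 under sh43 and sh45 and lay below it in the other 4 groups. S100A4 was the last of the 8 under sh43, at 2.39 ± 0.964 TPM, where S100A3 was last in the other 5 groups. S100A4 stood before S100A2 under sh50 alone, at 27.5 ± 0.902 TPM for S100A4 and 23.9 ± 4.67 TPM for S100A2.

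The rest of the family was close to silent in this line. Of 12 other S100 genes, S100A1 alone passed the filter, with a median of 6.05 TPM, and S100A7A, S100A8, S100A12, S100B and S100G had no count in any of the 18 libraries. S100A5, S100A7, S100A9, S100A14, S100P and S100Z did not exceed 2.16 TPM in any library. S100A8, S100A9 and S100A12 are the S100 genes of neutrophils and monocytes, and S100A7 and S100A7A those of inflamed skin. S100A1 measured 0.144, 0.256 and 0.238 CPM with sh43, against 0.766, 0.87 and 0.686 CPM in the ZHX2 shCtrl libraries, where CPM is the count scaled to library size, with factors from TMM (the trimmed mean of M values). It was lower under sh43 (log2 difference -1.81, SE 0.60; edgeR, adjusted p = 0.0089), from 2, 4 and 3 counts under sh43 and 10, 12 and 10 counts in shCtrl, and did not pass under sh45, sh50 or sh52 (edgeR, adjusted p = 0.329, 0.964 and 0.788). In the ZHX2 experiment S100A1 passed the filter through shCtrl and sh45 libraries, where it was higher, and through no sh43 library. The sh43 call is not independent of that choice and is given as a description. S100A1 overlaps S100A13 on the opposite strand and the library kit does not mark strand, so that reads of the shared stretch cannot be told apart.

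The identity of the cells and of the knockdowns was checked against known genes. USP13 mRNA measured 16.8, 17.1 and 20.5 CPM with sh50 and 14.8, 18.1 and 17.9 CPM with sh52, against 36.9, 34.7 and 31.8 CPM in the USP13 shCtrl libraries. ZHX2 mRNA measured 38.6, 43.4 and 38.6 CPM with sh43 and 90.8, 82.1 and 79.6 CPM with sh45, against 340.3, 344 and 344 CPM in the ZHX2 shCtrl libraries, so that each hairpin lowered the gene its title names: the log2 differences were -0.92 under sh50 and -1.03 under sh52 for USP13 and -3.09 under sh43 and -2.03 under sh45 for ZHX2 (edgeR, adjusted p = 6.31e-07, 3.26e-07, 4.55e-24 and 1.16e-20). Smaller differences stood in the gene that was not the target: ZHX2 was lower under sh50 (-0.20; edgeR, adjusted p = 0.00859) and sh52 (-0.17; edgeR, adjusted p = 0.0466, lost under 13 settings), and USP13 was lower under sh43 (-0.23; edgeR, adjusted p = 0.0155, lost under 2 settings) and did not pass under sh45 (0.17; edgeR, adjusted p = 0.0851). All 9 markers of the renal carcinoma line passed the filter in both experiments (among them PAX8, PAX2, EPAS1, VIM, KRT8, KRT18, KRT19 and CDH6). Of 12 leukocyte markers, CD3E, S100A8 and S100A12 were at 0 in all libraries, and the summed level of the list came mostly from CD68, a lysosomal protein gene that other cells also express. That sum was 19.3 to 24.2 CPM with sh50 and 37.1 to 38.8 CPM with sh52, against 29.3 to 32.6 CPM in USP13 shCtrl, and 20.0 to 20.9 CPM with sh43 and 59.3 to 62.7 CPM with sh45, against 38.0 to 45.7 CPM in ZHX2 shCtrl. The 8 endothelial markers, with EMCN at 0, summed to at most 4.19 CPM, the highest being under sh43, and the 7 markers of stratified epithelium, 4 of them at 0, to at most 0.558 CPM. The renal list had 1 gene that rose and 7 that fell under sh50, 0 and 5 under sh52, 5 and 4 under sh43, and 3 and 4 under sh45 (edgeR), where 21.5% of all genes were called under sh50, 12% under sh52, 68.8% under sh43 and 52.6% under sh45. The part of these markers in the results was not tested. Total estimated counts ran from 11192561 to 16511290 per library, and the share of mitochondrial rRNA was 4.26 ± 0.161% under sh50 and 3.70 ± 0.136% under sh52, against 2.62 ± 0.0783% in USP13 shCtrl, and 1.55 ± 0.031% under sh43 and 3.09 ± 0.26% under sh45, against 1.25 ± 0.0724% in ZHX2 shCtrl (SD, n = 3 each). Library sh52 replicate 1 lay apart from the other libraries of its experiment on the second principal component. Leaving it out gave S100A2 a log2 difference of -0.68 under sh52, S100A4 -0.59, S100A6 -0.25, S100A3 -0.20, S100A16 -0.17, S100A10 -0.077, S100A13 0.094 and S100A11 0.10.

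The low-level neighbours S100A2, S100A4 and S100A3 had the 3 largest log2 differences of the 8 genes under sh50 and under sh45, all toward a lower level. Under sh43, S100A4 had the largest and S100A16 the next, and under sh52, S100A2 and S100A4 had the largest, S100A6 the next and S100A3 the smallest. S100A2 encodes a mostly nuclear protein and is known as a marker of basal epithelial cells. It measured 11.5, 11.6 and 7.69 CPM with sh50 and 11.9, 21.8 and 20.3 CPM with sh52, against 27.3, 36.9 and 36.5 CPM in the USP13 shCtrl libraries. In the ZHX2 experiment it measured 20.6, 21.3 and 20.3 CPM with sh43 and 9.55, 10.5 and 12.1 CPM with sh45, against 28.7, 27.3 and 26.8 CPM in shCtrl. In all 4 comparisons every hairpin library lay below every control library. The means of S100A2 were 10.3 ± 2.25 CPM with sh50 and 18 ± 5.31 CPM with sh52 against 33.6 ± 5.45 CPM, and 20.7 ± 0.544 CPM with sh43 and 10.7 ± 1.3 CPM with sh45 against 27.6 ± 0.968 CPM (SD, n = 3 each). The log2 differences were -1.72 (SE 0.17) under sh50, -0.90 (SE 0.16) under sh52, -0.41 (SE 0.09) under sh43 and -1.36 (SE 0.10) under sh45. Library sh52 replicate 1 was the lowest of its group. The level was lower under sh50 than under sh52 in every library, and lower under sh45 than under sh43 in every library.

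S100A4 encodes a protein that binds the heavy chain of non-muscle myosin IIA, the product of MYH9, and is known for its part in cell motility and metastasis. It measured 4.02, 4.35 and 3.9 CPM with sh50 and 5.23, 6.62 and 6.46 CPM with sh52, against 8.81, 9.4 and 11.3 CPM in the USP13 shCtrl libraries. Both hairpins lay wholly below the control, with log2 differences of -1.26 (SE 0.18) under sh50 and -0.69 (SE 0.17) under sh52. In the ZHX2 experiment S100A4 measured 0.216, 0.383 and 0.556 CPM with sh43 and 1.24, 0.867 and 0.524 CPM with sh45, against 0.995, 2.83 and 3.36 CPM in shCtrl. These levels rest on few reads: 3, 6 and 7 counts under sh43 and 19, 11 and 8 counts under sh45, against 13, 39 and 49 counts in shCtrl. The sh43 libraries lay below all controls, with a log2 difference of -2.64 (SE 0.48). The sh45 libraries overlapped them, because ZHX2 shCtrl replicate 1 stood below sh45 replicate 1, and the log2 difference was -1.45 (SE 0.41). The S100A4 level of the 2 control sets was itself unlike, with ZHX2 shCtrl lower than USP13 shCtrl by a log2 difference of -2.12 when all 18 libraries were scaled together.

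S100A3 encodes a protein that binds zinc as well as calcium and is best known from the hair cuticle. It measured 3.04, 3.54 and 3.42 CPM with sh50 and 5.8, 4.36 and 3.73 CPM with sh52, against 5.38, 5.07 and 3.43 CPM in the USP13 shCtrl libraries. Neither hairpin separated from the control, and the log2 differences were -0.47 (SE 0.24) under sh50 and -0.00 (SE 0.23) under sh52. In the ZHX2 experiment S100A3 measured 1.01, 1.28 and 2.07 CPM with sh43 and 0.72, 1.26 and 0.458 CPM with sh45, against 2.3, 2.76 and 2.95 CPM in shCtrl. Both hairpins lay wholly below the control there, with log2 differences of -0.90 (SE 0.33) under sh43 and -1.74 (SE 0.36) under sh45. The 3 sh45 libraries held 11, 16 and 7 counts of S100A3, against 30, 38 and 43 counts in ZHX2 shCtrl. In the RefSeq table the long non-coding RNA gene LOC101928034 overlaps S100A3 over 1930 bases. Reads of shared bases may not be told apart. The neighbours S100A2, S100A3 and S100A4 were thus below the control under both ZHX2 hairpins, apart from the 1 overlap of S100A4 under sh45.

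**Figure D2:**
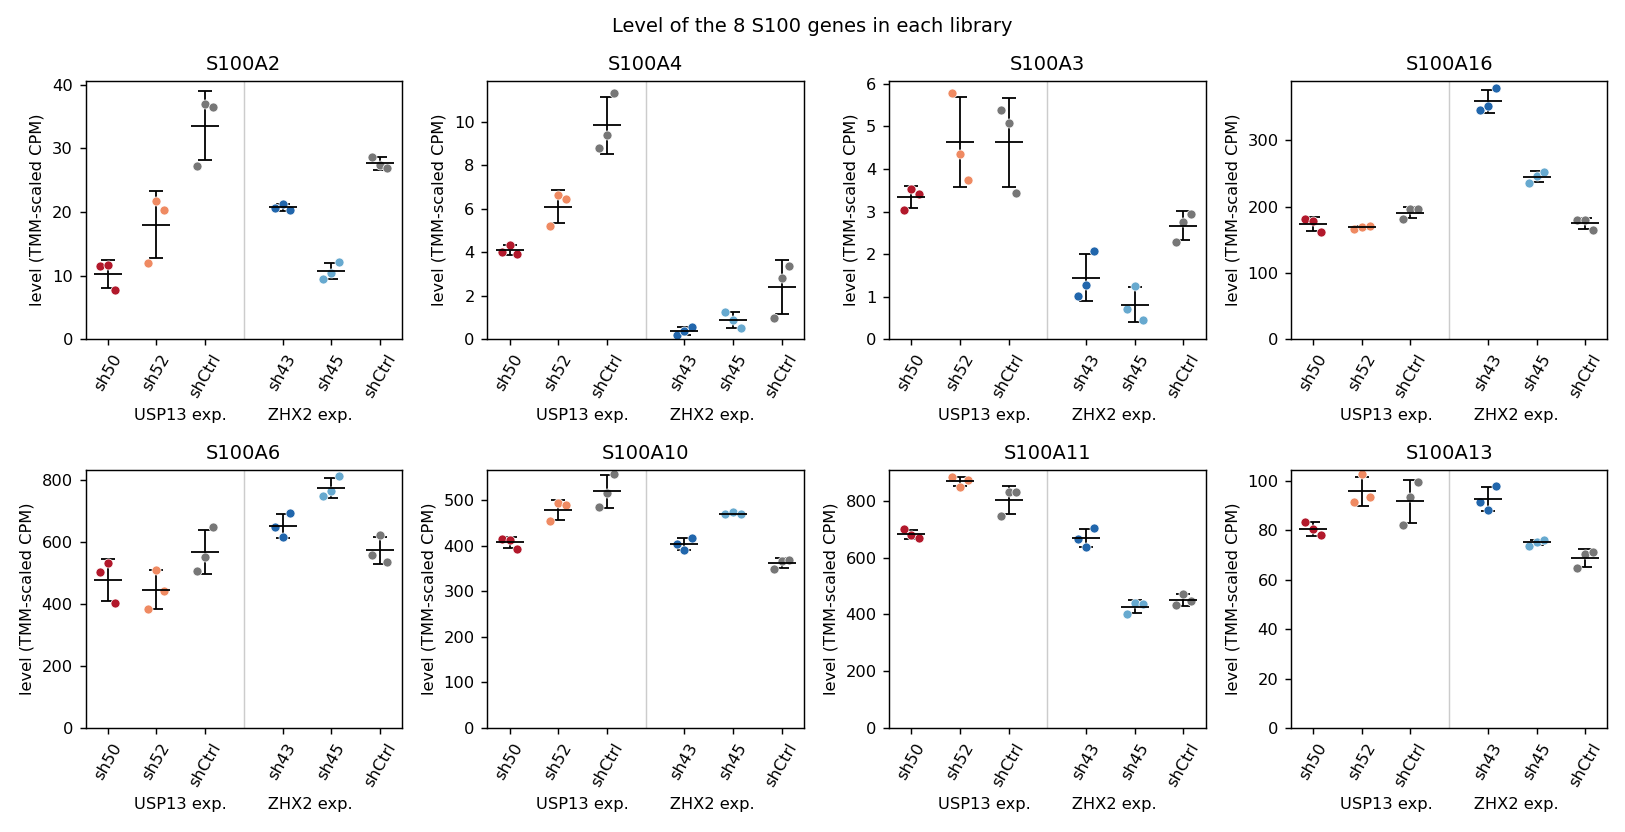
Level of each of the 8 genes as TMM-scaled CPM in every library (coloured points), with the mean and SD of each group of 3 (black bars); the USP13 experiment is left of the grey line and the ZHX2 experiment right of it, each with its hairpins before its shCtrl, and every axis starts at 0. S100A2 lies below its control under all 4 hairpins, and S100A16 stands between 346 and 378 CPM with sh43, against 165 to 180 CPM in the ZHX2 shCtrl libraries.

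S100A16, the next gene along the chromosome and one of the most widely expressed of the family across tissues, differed the other way under the ZHX2 hairpins. It measured 346, 351 and 378 CPM with sh43 and 236, 246 and 252 CPM with sh45, against 179, 180.3 and 165 CPM in shCtrl. Every hairpin library lay above every control library. The level was 2.05-fold that of the control under sh43 (log2 difference 1.03, SE 0.05) and 1.4-fold under sh45 (log2 difference 0.48, SE 0.05). In the USP13 experiment S100A16 measured 181, 178 and 161 CPM with sh50 and 167, 169 and 170.3 CPM with sh52, against 181, 196 and 196 CPM in shCtrl. All 6 hairpin libraries were below the 3 controls, by a small margin, since sh50 replicate 1 all but met USP13 shCtrl replicate 1. The log2 differences were -0.14 (SE 0.06) and -0.18 (SE 0.06), and the first was -0.086 without sh50 replicate 3. Both control sets were alike in S100A16, with overlapping libraries and a log2 difference of -0.05 between ZHX2 shCtrl and USP13 shCtrl.

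S100A10 and S100A6, both abundant, were above the control under the ZHX2 hairpins and below it, in part, under the USP13 hairpins. S100A10, the light chain that forms a tetramer with annexin A2, measured 405, 390.0 and 417 CPM with sh43 and 470.3, 473 and 469 CPM with sh45, against 349.8, 368 and 368 CPM in shCtrl. Neither group of hairpin libraries overlapped the control, and the log2 differences were 0.16 (SE 0.04) and 0.38 (SE 0.04). It measured 416, 413 and 394 CPM with sh50 and 454, 494 and 490.3 CPM with sh52, against 486, 515 and 557 CPM in the USP13 shCtrl libraries. The sh50 libraries lay below all controls (log2 difference -0.35, SE 0.05), whereas the sh52 libraries overlapped them (log2 difference -0.11, SE 0.05, or -0.062 without USP13 shCtrl replicate 3). On the TPM scale the sh52 libraries, at 983.5 to 1029.6 TPM, lay below the USP13 shCtrl libraries, at 1051 to 1145 TPM.

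S100A6, also called calcyclin, which binds CACYBP and is linked to proliferating cells, measured 649, 616 and 694 CPM with sh43 and 749.8, 767 and 812 CPM with sh45, against 559.9, 622 and 537 CPM in shCtrl. The sh45 libraries lay above all controls (log2 difference 0.44, SE 0.05), and the sh43 libraries overlapped them by 1 library, sh43 replicate 2 (log2 difference 0.19, SE 0.05). In the USP13 experiment it measured 502, 532 and 402 CPM with sh50 and 385, 511 and 444 CPM with sh52, against 507, 552 and 647 CPM in shCtrl. Both groups overlapped the control, which itself ran over a wide range. On the TPM scale neither did: S100A6 had 1662 to 2115 TPM under sh50 and 1606 to 2075 TPM under sh52, against 2147 to 2608 TPM in shCtrl. The log2 differences of S100A6 were -0.25 (SE 0.09) and -0.35 (SE 0.09), and the first became -0.14 without sh50 replicate 3 and -0.15 without USP13 shCtrl replicate 3. In the RefSeq table the long non-coding RNA gene LOC124904423 overlaps S100A6 over 1393 bases, and reads of shared bases may not be told apart.

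S100A11 had unlike levels under the 2 hairpins of each experiment, and S100A13 was above its control under the ZHX2 hairpins. S100A11 encodes a partner of annexin A1 that takes part in membrane repair and epidermal growth control. It measured 666, 637 and 703 CPM with sh43 and 401, 441 and 438 CPM with sh45, against 432, 473 and 447 CPM in the ZHX2 shCtrl libraries. Under sh43 it stood above every control library (log2 difference 0.57, SE 0.05), while the sh45 libraries overlapped the control (log2 difference -0.08, SE 0.05, or -0.028 without ZHX2 shCtrl replicate 2 and -0.034 without sh45 replicate 1). On the TPM scale S100A11 had 1853 to 2061 TPM under sh45, against 2355 to 2393 TPM in shCtrl, a log2 difference of -0.28 where the median of all genes was -0.21. In the USP13 experiment S100A11 measured 699, 679 and 668 CPM with sh50 and 882, 849 and 872 CPM with sh52, against 745, 829 and 832 CPM in shCtrl. All sh50 libraries were below the control (log2 difference -0.23, SE 0.05) and all sh52 libraries above it (log2 difference 0.11, SE 0.05, or 0.063 without USP13 shCtrl replicate 1). The RefSeq table holds 10 pseudogenes of S100A11, none of which has a transcript in the files, and reads they share with S100A11 were not separated.

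S100A13 encodes a protein that helps FGF1 and IL1A, signals without a leader peptide, out of the cell. It measured 91.6, 88.3 and 98.1 CPM with sh43 and 73.8, 75.3 and 76 CPM with sh45, against 64.6, 70.3 and 71.3 CPM in the ZHX2 shCtrl libraries. Both hairpins lay above all controls, and the log2 differences were 0.43 (SE 0.06) under sh43 and 0.13 (SE 0.06) under sh45. The sh45 difference of S100A13 was 0.084 without ZHX2 shCtrl replicate 1 and -0.052 on the deposited TPM scale, on which the median of all genes was itself shifted to -0.21 under sh45. In the USP13 experiment S100A13 measured 83.3, 80.3 and 78 CPM with sh50 and 91.6, 103 and 93.3 CPM with sh52, against 82.3, 93.3 and 99.5 CPM in shCtrl. Both groups overlapped the control, with log2 differences of -0.19 (SE 0.07) and 0.06 (SE 0.07).

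Read together by comparison, 5 of the 8 genes had sh50 libraries wholly below the USP13 shCtrl libraries and 0 wholly above, where 19.6% and 18.6% of the 13708 genes tested did so, 38.2% in either direction. Under sh52, 3 genes lay wholly below and 1 wholly above, against 14.4% and 13.4% of all genes, 27.8% in either direction. Without sh52 replicate 1, 4 genes did not overlap as well, and the share of all genes for that setting was not worked out. In the ZHX2 experiment non-overlap was the common state, since 70.3% of the 13597 genes tested under sh43 and 57.2% of those under sh45 did not overlap the control. There, 4 genes lay wholly above and 3 wholly below under sh43, against 34.4% and 35.9% of all genes, and 4 above and 2 below under sh45, against 27.9% and 29.3%. The median log2 difference of the 8 genes was -0.30 under sh50, -0.15 under sh52, 0.17 under sh43 and 0.02 under sh45, while that of all genes was 0.00 under sh50, -0.00 under sh52, -0.02 under sh43 and -0.01 under sh45. On the deposited TPM scale 7 of the 8 genes did not overlap the control under sh50 and 5 under sh52. In the ZHX2 experiment 7 did not overlap it under sh43 and 6 under sh45. How many of all genes separated on the TPM scale was not worked out, so these counts have nothing to be set against. The median of the 8 genes on that scale was 0.089 under sh43 and -0.17 under sh45. That of all genes was -0.05 for sh50, 0.008 for sh52, -0.10 for sh43 and -0.21 for sh45. Since the genes were chosen with these comparisons known, the counts support nothing beyond the values of the genes themselves.

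**Figure D3:**
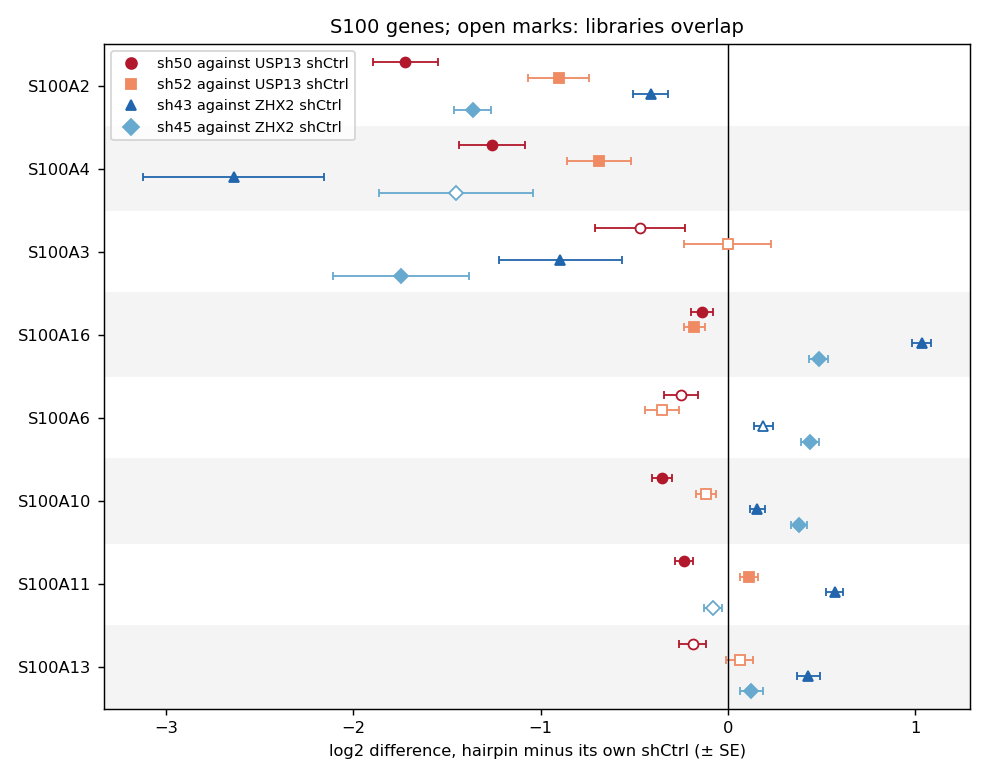
Log2 difference of each of the 8 genes under each hairpin against its own shCtrl, with its standard error as a bar; open marks stand for hairpin libraries that overlap the control libraries. S100A2 and S100A4 lie left of 0 under all 4 hairpins, and S100A16 lies at 1.03 under sh43 and 0.48 under sh45 but at -0.14 under sh50 and -0.18 under sh52.

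Within S100A13, S100A16 and S100A4 the files quantify several transcripts each, and these shares were not used to choose the genes. S100A13 has 5 RefSeq transcripts in the files. The transcript NM_001024212 held 44.6, 45.6 and 41.9% of S100A13 counts under sh43 and 43.4, 42.9 and 36.2% under sh45, against 35.7, 31.8 and 31.4% in the ZHX2 shCtrl libraries. All 6 hairpin libraries lay above the 3 controls, at a mean of 42.4% over both hairpins against 32.9% in shCtrl, which is 9.48 percentage points more. An exact two-sided permutation test over the 9 libraries gave p = 0.0238, the smallest that 6 against 3 allows, and a Benjamini-Hochberg adjusted p of 0.175 over the 22 share tests of this kind. With that smallest p and 22 tests, a single share could not pass the correction, whatever its size. The pooled tests treat 3 libraries of each of 2 hairpins as 6 alike units, so their p does not measure the spread between hairpins. For NM_001024212, sh43 alone and sh45 alone each gave p = 0.1 (exact permutation test, two-sided). In the USP13 experiment the same transcript held 31.6 ± 1.46% under sh50 and 30.8 ± 1.21% under sh52, against 29.7 ± 1.25% in shCtrl (SD, n = 3 each), with overlapping libraries. NM_001024211 had a lower share in the ZHX2 experiment, with a mean of 16.5% over both hairpins against 21.6% in shCtrl (exact permutation test, two-sided, p = 0.0238, adjusted p = 0.175). The shares of a gene have a fixed total, so a higher share of 1 transcript lowers others and this is no separate result. Its unscaled estimated counts were 198, 230 and 203 under sh43 and 151, 168 and 222 under sh45, against 181, 210 and 224 in shCtrl. NM_005979 had a mean of 19.9% over both USP13 hairpins against 22.4% in USP13 shCtrl (exact permutation test, two-sided, p = 0.0238, adjusted p = 0.175), and no other S100A13 transcript reached the smallest p in either experiment. The 4 transcripts of S100A16 differed from their controls by at most 1.91 percentage points over both hairpins, with adjusted p of 0.349 or more (exact permutation test). S100A4 has 2 transcripts, and its shares in the ZHX2 experiment rest on the few counts given above. Salmon divides reads among transcripts that share sequence, so that these shares are estimates, and 3 libraries against 3 cannot give an exact p below 0.1.

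**Figure D4:**
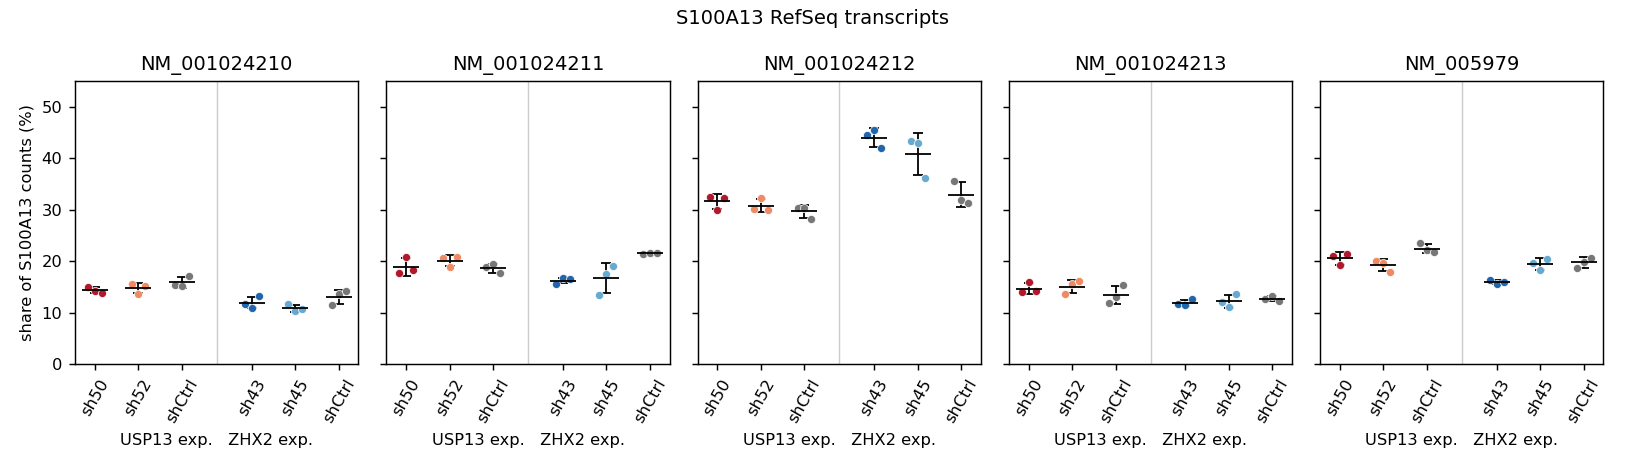
Share of the S100A13 estimated counts given to each of its 5 RefSeq transcripts, in percent, for every library (coloured points), with the mean and SD of each group of 3 (black bars). NM_001024212 stands at 36.2% to 45.6% in the 6 ZHX2 hairpin libraries, above the 31.4% to 35.7% of the ZHX2 shCtrl libraries, and at 28.2% to 32.5% in the USP13 experiment.

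Among genes outside the family, annexins are the calcium-dependent membrane-binding proteins that several S100 dimers bridge. Under sh50, 8 of 10 measured annexins fell and 1 rose, where 11.3% of all genes fell and 10.2% rose (edgeR, adjusted p under 0.05; 21.5% in either direction). Values in brackets beside a gene are log2 differences. Under sh52, 4 fell and 1 rose, where 6.57% of all genes fell and 5.45% rose (12% in either direction, from 1647 genes called, or 1023 and 990 without USP13 shCtrl replicate 1 or 2). ANXA2, the partner of S100A10, measured 1209, 1189.6 and 1207 CPM with sh50 and 1394, 1330.2 and 1346 CPM with sh52, against 1526, 1588 and 1552 CPM in shCtrl. It fell under both hairpins, with log2 differences of -0.37 (SE 0.04; edgeR, adjusted p = 2.09e-07) and -0.20 (SE 0.04; edgeR, adjusted p = 0.00165). ANXA1, the partner of S100A11, fell by similar amounts under sh50 and sh52 (-0.39 and -0.38; edgeR, adjusted p = 1.33e-06 and 5.74e-06). ANXA4, which is abundant in epithelia and in clear-cell renal tumours, fell as well (-0.36 and -0.23; edgeR, adjusted p = 5.46e-07 and 0.000408). ANXA3 fell under sh50 (-0.62; edgeR, adjusted p = 0.00345) and under sh52 (-0.45; edgeR, adjusted p = 0.0445), and the second call was lost without sh52 replicate 1 (edgeR, adjusted p = 0.143) and under 8 other settings. ANXA5, the annexin used to stain dying cells, was the 1 that rose (0.16 and 0.18; edgeR, adjusted p = 0.0367 and 0.0316), with each call lost under 4 settings, among them leaving out USP13 shCtrl replicate 2 (edgeR, adjusted p = 0.112 and 0.108) and, for sh52, leaving out sh52 replicate 1 (log2 difference 0.11; edgeR, adjusted p = 0.159).

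Under the ZHX2 hairpins the annexins were split. Under sh43, 4 of 9 measured annexins rose and 3 fell, where 33.5% of all genes rose and 35.3% fell (68.8% in either direction), and under sh45, 1 rose and 7 fell, where 25.3% rose and 27.3% fell (52.6% in either direction). ANXA4 had the largest difference of the list among those called under both hairpins: it measured 443, 456 and 459 CPM with sh43 and 696, 703 and 661 CPM with sh45, against 1559, 1567 and 1513 CPM in shCtrl. The log2 difference of ANXA4 was -1.77 with sh43 (adjusted p = 3.77e-23 by edgeR) and -1.17 with sh45 (adjusted p = 4.43e-19 by edgeR), a fall in both cases. ANXA11 fell under both hairpins (-0.25 and -0.38; edgeR, adjusted p = 0.000125 and 6.92e-07). ANXA5 rose under both (0.09, or 0.14 without ZHX2 shCtrl replicate 2, and 0.17; edgeR, adjusted p = 0.0471 and 0.000963), and its sh43 call was lost under 8 settings, among them upper-quartile factors (edgeR, adjusted p = 0.352). ANXA1 rose to 787, 777 and 816 CPM with sh43 and fell to 425, 437 and 411 CPM with sh45, against 485, 506 and 475 CPM in shCtrl (0.70 and -0.20; edgeR, adjusted p = 4.37e-14 and 0.00019). ANXA2 likewise rose under sh43 (0.15; edgeR, adjusted p = 0.00114) and fell under sh45 (-0.10; edgeR, adjusted p = 0.0272), where the fall was lost under 7 settings, among them without sh45 replicate 1 (edgeR, adjusted p = 0.125). S100A10 was above its control under sh45 while its partner ANXA2 was slightly below, and under sh43 both were above.

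**Figure D5:**
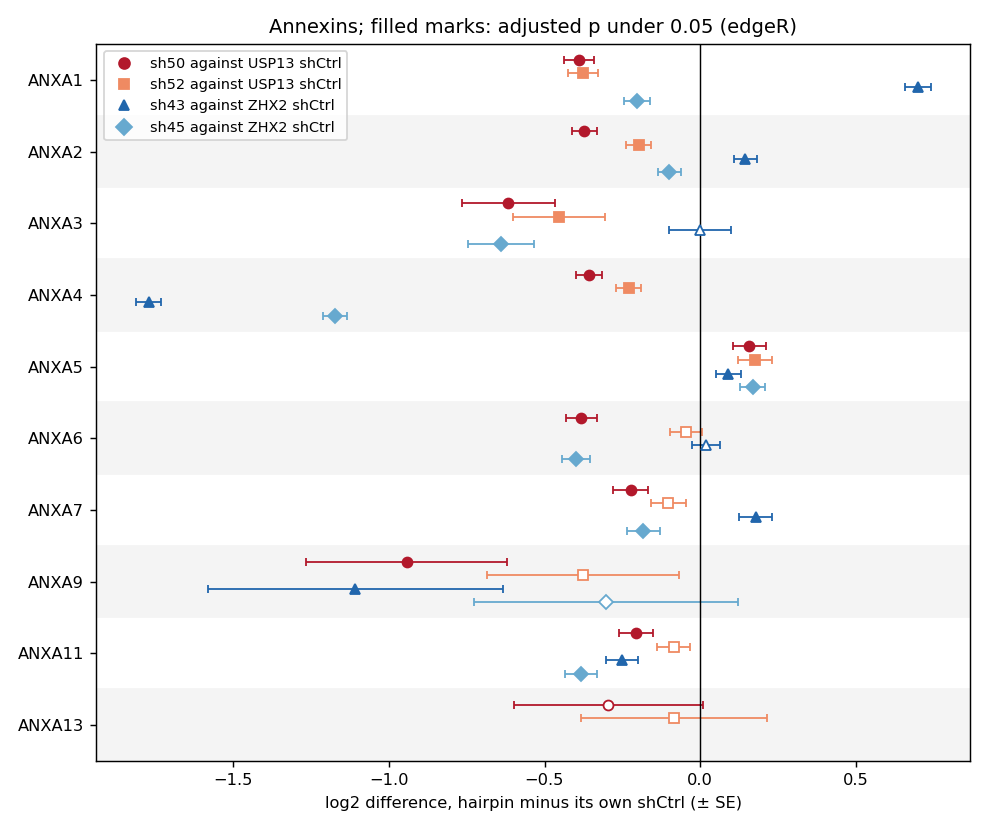
Log2 difference of each measured annexin under each hairpin against its own shCtrl, with its standard error as a bar; filled marks passed edgeR's test at an adjusted p under 0.05. ANXA4 lies at -1.77 under sh43 and -1.17 under sh45, and ANXA1 lies at 0.70 under sh43 but at -0.20 under sh45.

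The other listed partners of S100 proteins include receptors, scaffolds and cytoskeletal proteins. Under sh50, 5 of 15 measured partners fell and 0 rose (edgeR), while under sh52, 2 rose and 1 fell. Of all genes, 11.3% fell and 10.2% rose under sh50, and 6.57% fell and 5.45% rose under sh52. PPFIBP1, a liprin that binds S100A4, fell under both (-0.41 and -0.27; edgeR, adjusted p = 2.86e-05 and 0.00529, the second lost without sh52 replicate 3). AHNAK, the giant scaffold that S100A10 and annexin A2 hold at the membrane, fell under sh50 (-0.36; edgeR, adjusted p = 9.82e-07) and did not pass under sh52 (-0.12; edgeR, adjusted p = 0.0656). It rose under sh43 (0.27; edgeR, adjusted p = 0.00535), a call lost with DESeq2 (adjusted p = 0.0643) and a difference of 0.13 without ZHX2 shCtrl replicate 2, and did not pass under sh45 (edgeR, adjusted p = 0.238). Under sh43, 10 of 16 measured partners rose and 1 fell, and under sh45, 4 rose and 6 fell. Of all genes, 33.5% rose and 35.3% fell under sh43, and 25.3% rose and 27.3% fell under sh45, so that the sh45 counts are near those of all genes. CACYBP, the partner of S100A6, measured 234, 228 and 228 CPM with sh43, against 111, 125 and 111 CPM in shCtrl, and rose by a log2 difference of 1.00 (SE 0.06; edgeR, adjusted p = 3.36e-14). It did not pass under sh45 (-0.06; edgeR, adjusted p = 0.429). S100A6 itself had a log2 difference of 0.19 under sh43, with overlapping libraries, and 0.44 under sh45.

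MYH9, the partner of S100A4, rose under sh43 (0.20; edgeR, adjusted p = 7.77e-05), fell under sh45 (-0.61; edgeR, adjusted p = 6.63e-13) and rose under sh52 (0.15; edgeR, adjusted p = 0.0175, lost under 2 settings). It did not pass under sh50 (-0.10; edgeR, adjusted p = 0.0914). KCNK3, a potassium channel that S100A10 is known to bring to the cell surface, measured 79.2, 79.3 and 87.6 CPM with sh43 and 72.7, 73.9 and 75.4 CPM with sh45, against 10.5, 11.9 and 12.4 CPM in shCtrl, and rose under both (2.82 and 2.67; edgeR, adjusted p = 5.16e-21 and 4.1e-20). PLAT, the tissue plasminogen activator that binds the annexin A2 complex, rose under both as well, at 8.36, 6.26 and 8.74 CPM with sh43 and 7, 7.41 and 8.38 CPM with sh45, against 1.22, 0.435 and 0.755 CPM in shCtrl (3.27 and 3.24; edgeR, adjusted p = 2.33e-11 and 7.41e-11). FGF1, the cargo of S100A13, had 1 count or fewer in any group and was not tested.

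Calcium sensors with EF-hands outside the S100 family formed another list, with 24 measured genes. Under sh50, 10 fell and 2 rose, and under sh52, 7 fell and 2 rose (edgeR), against 11.3% and 10.2% of all genes under sh50 and 6.57% and 5.45% under sh52. CALM3, a calcium sensor gene, fell under all 4 hairpins, by log2 differences between -0.24 and -0.34. CAPNS1, the small calpain subunit, fell under sh50 (-0.26), sh52 (-0.23) and sh43 (-0.15, lost without ZHX2 shCtrl replicate 2, edgeR, adjusted p = 0.157) and rose under sh45 (0.20). Of the others, RCN2 (-0.24 and -0.46) and SDF4 (-0.40 and -0.30), both proteins of the secretory pathway, fell under sh50 and sh52, and EFHD1, a mitochondrial protein gene, rose (0.46 and 0.71). The sh50 calls of RCN2 and EFHD1 were lost under 4 and 3 settings, without sh50 replicate 1 for EFHD1 (edgeR, adjusted p = 0.128). Under sh43 and sh45 the log2 differences were -1.08 and -0.02 for EFHD1, 0.13 and 0.15 for RCN2, and -0.02 and 0.05 for SDF4.

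Under sh43, 9 of the 24 sensors rose and 11 fell, and under sh45, 13 rose and 3 fell, against 33.5% and 35.3% of all genes under sh43 and 25.3% and 27.3% under sh45. HPCAL1, a visinin-like sensor, rose to a log2 difference of 1.02 under sh43 and 0.87 under sh45 (edgeR, adjusted p = 1.1e-16 and 1.03e-14). EFHD2, an actin-binding sensor, rose by 1.05 and 0.60 on the log2 scale (edgeR, adjusted p = 2.57e-17 and 1.04e-11), and CETN3, a centrosome component, by 0.87 and 0.78 (edgeR, adjusted p = 7.96e-07 and 9.36e-06). RCN1, a sensor of the endoplasmic reticulum, fell by 1.41 under sh43 and 0.41 under sh45 on that scale (edgeR, adjusted p = 6.16e-20 and 7.59e-09). HPCAL1 and EFHD2 fell under sh50 (-0.17 and -0.18), with calls lost under 8 and 7 settings. Their log2 differences under sh52 were -0.15 and 0.05. CETN3 had 0.07 under sh50 and 0.02 under sh52, and RCN1 had -0.31 and -0.07. Over the other S100 genes, annexins, partners and sensors together, 50 of 73 listed genes were measured in each experiment. Of these, 26 were called under sh50, 17 under sh52, 39 under sh43 and 34 under sh45, where 21.5%, 12%, 68.8% and 52.6% of all genes were called, in the same order. The sh52 count was 11 without USP13 shCtrl replicate 2. Their median log2 differences were -0.18 under sh50, -0.10 under sh52, 0.04 under sh43 and 0.00 under sh45.

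Genes without a calcium-binding role that lie around the S100 cluster included genes that rose and genes that fell. Of 14 such genes, all measured, 4 rose and 0 fell under sh50, 3 rose and 1 fell under sh52, 4 rose and 6 fell under sh43, and 4 rose and 4 fell under sh45 (edgeR). With 68.8% of all genes called under sh43 and 52.6% under sh45, the counts under these hairpins are near those of all genes, while 21.5% were called under sh50 and 12% under sh52. INTS3, an Integrator subunit, rose under sh50 and sh52 (0.46 and 0.27; edgeR, adjusted p = 8.38e-07 and 0.00168), as did NPR1, a natriuretic peptide receptor (1.24 and 1.04; edgeR, adjusted p = 0.000532 and 0.00666, the second lost without USP13 shCtrl replicate 2, edgeR, adjusted p = 0.0506). Under sh43 and sh45 the log2 differences were -0.16 and -0.06 for INTS3 and -0.56 and -1.28 for NPR1. CHTOP, a chromatin and mRNA export factor whose gene overlaps S100A13 in the RefSeq table, rose under sh43 and sh45 (0.81 and 0.32; edgeR, adjusted p = 6.45e-12 and 0.000101). Without strand information, reads from their shared bases cannot be told apart. JTB rose slightly under both (0.14, or 0.066 without sh43 replicate 3, and 0.17), with calls lost under 8 and 3 settings. The zinc transporter gene SLC39A1 fell under both (-0.60 and -0.13; edgeR, adjusted p = 8.5e-12 and 0.0189, the second lost under 4 settings), and so did SNAPIN, a vesicle fusion factor (-0.43 and -0.35; edgeR, adjusted p = 0.000175 and 0.00204).

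The genes whose levels followed each of the 8 most closely were found by Pearson's r over the 18 libraries, after each library's log2 level was taken minus the mean of its own experiment, among 13175 genes. The libraries are 6 groups of 3 replicates, so that r mostly reads the group means, and it is given as a description. S100A16 was followed most closely by PSMB7, a proteasome subunit (r = 0.99), then by the tubulin gene TUBA1C (r = 0.98) and by GDF15, a stress-induced cytokine (r = 0.98). S100A13 was followed by PSMB1, another proteasome subunit (r = 0.93), SDC4 (r = 0.92) and EPHA2 (r = 0.91). S100A11 was followed by ACTN1, an actin cross-linker (r = 0.97), ILKAP (r = 0.95) and TBC1D2 (r = 0.95), and S100A10 by LGALS1, which encodes galectin-1 (r = 0.96), PPP1R18 (r = 0.93) and TRIM47 (r = 0.93). S100A6 had ANAPC11, MOGS and MAP2K2 (r = 0.90 each) as its nearest genes. The low genes were followed by ARPC1B (r = 0.95), TRIM31 (r = 0.93) and GALNS (r = 0.93) for S100A2, by UGT1A9 (r = 0.90), HOXA9 (r = 0.89) and SLC30A9 (r = 0.89) for S100A4, and by PLS1 (r = 0.91), SHLD2 (r = 0.90) and VLDLR (r = 0.89) for S100A3. Among the 8 themselves, S100A11 and S100A13 were the most alike (r = 0.90), and S100A4 and S100A16 the most opposed (r = -0.71).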

How the data were processed

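RNA libraries of the 786-O line numbered 18, 3 in each of 6 groups, and groups were read from the sample titles. Each deposited file is a Salmon quantification by RefSeq transcript, per the file headers, and the deposited estimated counts were whole numbers not scaled for depth. The deposited TPM, which has 1 fixed total per library, served for levels between genes and for 1 alternative fit, as log2(TPM + 0.1). Per the submitters' processing notes, the tools were DESeq2 1.14.1, Salmon 0.11.3, STAR 2.5.2b and cutadapt 1.12, on build hg19, with no role or order given. Per the labels' protocols, libraries were made with a kit that does not mark strand and were read as pairs of 150 bases.

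Estimated counts were rounded and summed to 27064 genes through the RefSeq gene table (GRCh38.p14), with GENCODE release 29 for the rest. Transcripts with no gene name were dropped (0.0854% to 0.12% of each library). Because the files' build differs from the table's, only promoter coordinates are printed, with the table's build. Low counts were removed with filterByExpr, libraries were scaled by TMM, and differences were tested with edgeR 4.0.16 (R 4.3.3) by the quasi-likelihood F-test, all 9 libraries of an experiment in 1 fit, with Benjamini-Hochberg adjustment over all genes tested. "Rose" and "fell" mean an adjusted p under 0.05. Counts simulated from these libraries gave back 72% of genes changed 1.5-fold and 85% of those changed 2-fold for sh50 (100 genes each among 13708), and 81% and 87% for sh43 (among 13597), with 9 and 12 calls among unchanged genes. In the data far more genes were called, 21.5% under sh50 and 68.8% under sh43, so that the simulated figures may not carry over.

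The 8 genes, the lists and the tests were chosen with earlier results of these data known. Named beside the 8 genes were the targets, the partners ANXA1, ANXA2, AHNAK, CACYBP, MYH9 and FGF1, up to 4 genes per list and experiment with the largest mean log2 difference among those called the same way under both hairpins, each listed gene called in all 4 comparisons, and the 3 genes most like each of the 8 by Pearson's r. Some genes that this rule names are not reported here. S100A1 was named outside this rule, as the single other S100 gene measured. The transcript shares and their tests were added after the data were seen. Pairs of replicates had a chi-square per degree of freedom of 2.33 to 6.68 in 18 pairs, no 2 files were identical, and all libraries were kept. P-values measure the spread between libraries, which may be technical. Alternatives were other size factors, no filter, DESeq2 1.42.0, the 6 compared libraries alone, a replicate block, mRNA (NM_) transcripts alone, deposited TPM and leaving out each library.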

Additional observations from a re-analysis of the deposited data

Results flagged for a closer look

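S100A16 moved in opposite directions in the 2 experiments: every ZHX2 hairpin library lay above its control, with log2 differences of 1.03 under sh43 and 0.48 under sh45, and every USP13 hairpin library lay below its control, with -0.14 under sh50 and -0.18 under sh52. The difference between the knockdowns was not tested. The other results listed here are pairs of hairpins against 1 target whose libraries all moved in opposite directions, and none of these differences was tested. S100A11 had a log2 difference of -0.23 under sh50 and 0.11 under sh52. ANXA1 had 0.70 under sh43 and -0.20 under sh45, and ANXA2 had 0.15 under sh43 and -0.10 under sh45. CAPNS1 had -0.15 under sh43 and 0.20 under sh45. MYH9 had 0.20 under sh43 and -0.61 under sh45, and -0.10 under sh50, which did not pass (edgeR, adjusted p = 0.0914), and 0.15 under sh52. Mitochondrial rRNA, at 1.55 ± 0.031% under sh43 and 3.09 ± 0.26% under sh45 (SD, n = 3 each), also differed between the ZHX2 hairpins, and its part in these values was not tested.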

How the results depend on the processing

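Over all alternatives, 534 of 544 values of the 8 genes moved by less than the spread between replicates, 9 moved further and 1 reversed. Without 1 library, the differences near 0 of S100A3 under sh52 (-0.20 to 0.14) and S100A13 under sh52 (-0.01 to 0.12) took either sign. The reversed value was S100A13 under sh45 on the deposited TPM scale, at -0.052, where the median of all genes stood at -0.21. With deposited TPM the median of the 8 genes was 0.089 under sh43 and -0.17 under sh45. Leaving out 1 library gave 990 to 1661 genes called under sh52, with 1023 without USP13 shCtrl replicate 1 and 990 without replicate 2, and 11 to 17 listed genes called under sh52, with 11 without USP13 shCtrl replicate 2. Under sh50 it gave 2043 to 3556 genes and 19 to 30 listed genes, against 2942 and 26 with all libraries. Both of the highest sh50 counts came without sh52 replicate 1. The cause of these changes was not tested. Without 1 library, 5 to 7 of the 8 genes did not overlap the control under sh50, 4 to 6 under sh52, 7 to 8 under sh43 and 6 to 8 under sh45. Groups with fewer libraries separate more readily for any gene. The share of all genes without overlap was not worked out for these settings, so the higher counts are no sign of a firmer result. Same-numbered replicates did not vary together (correlations from -0.093 to 0.046 in the USP13 experiment and -0.051 to 0.029 in the ZHX2 experiment), and a replicate block gave 2698 genes called under sh50, 1461 under sh52, 9231 under sh43 and 6976 under sh45. Depth limits S100A4, S100A3 and S100A1 in the ZHX2 experiment, where S100A4 had 3 to 49 counts per library.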
